A study of Homo sapiens with 9 samples.

Results

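The genes described here are the translation initiation factors (eIFs) and elongation factors (eEFs) of HCT116 cells, a human colon carcinoma line, together with the kinases, methyltransferases and repressors named after them. The rule is one of names and uses no measured value, taking every row of the table of gene counts whose symbol starts with EIF followed by a digit from 1 to 6 or with EEF followed by 1 or 2, which gave 67 of 11350 genes. RNA came from 3 lines with 3 libraries each. HUWE1-P are the parental cells, HUWE1-WT are cells in which a repair template put the catalytic cysteine of the endogenous ubiquitin ligase HUWE1 back as cysteine, and HUWE1-CS are cells in which the same template put a serine there. Both edited lines carry the template with its blasticidin resistance gene and were grown from single cells, the parental line carries neither, and the labels list no treatment for any library. Whether the 3 RNA samples of an edited line came from 1 clone or several is not given in the sources used here, so that the codon and the clone cannot be told apart. The study speaks of biological replicates, but nothing in the labels says that they were separate cultures, and p-values here measure only the spread between these libraries, which may be technical. Gene counts do not show which codon a library carries.

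Protein synthesis starts when the small ribosomal subunit, loaded with initiator tRNA by eIF2 and held by the large scaffold eIF3, is recruited to the mRNA cap by eIF4F and scans to a start codon. After the subunits join, eEF1A delivers each aminoacyl-tRNA and eEF2 moves the ribosome along. Cells adjust the rate mainly at 2 points, the phosphorylation of eIF2 alpha and the capture of the cap-binding protein eIF4E by the 4E-BP repressors under control of mTOR. Messengers for elongation factors and some initiation factors begin with a cytosine and a run of pyrimidines (5′ terminal oligopyrimidine, 5′TOP), a feature they share with ribosomal protein mRNAs and through which mTOR and LARP1 control their translation and stability.

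The starts of these transcripts are shown here because the members that rose in HUWE1-CS cells are described by them further on. Each window holds 10 bases before the annotated RefSeq transcript start and 20 bases from it, 5′ to 3′ on the transcript's strand, with GRCh38.p14 coordinates. Capitals mark the run of pyrimidines where the transcript starts with C followed by at least 4 C or T.
EEF1A1 (chr6:73521013-73521042, minus strand): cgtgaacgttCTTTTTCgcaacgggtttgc
EEF1B2, the second of 2 starts (chr2:206159885-206159914, plus strand): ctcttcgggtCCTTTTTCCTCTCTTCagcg
EEF2 (chr19:3985444-3985473, minus strand): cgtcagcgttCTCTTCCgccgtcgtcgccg
EIF4B (chr12:53006446-53006475, plus strand): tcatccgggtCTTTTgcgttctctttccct
EIF4A2 (chr3:186783567-186783596, plus strand): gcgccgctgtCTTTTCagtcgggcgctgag
EIF3D (chr22:36529147-36529176, minus strand): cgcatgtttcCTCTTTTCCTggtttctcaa
EIF3F (chr11:7987327-7987356, plus strand): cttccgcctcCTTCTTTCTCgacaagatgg
EIF3K (chr19:38619178-38619207, plus strand): tttccaccacCTCTTCCTgttcccgtcctt
EIF3M (chr11:32583821-32583850, plus strand): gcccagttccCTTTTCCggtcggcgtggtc
EIF2S3 (chrX:24054946-24054975, plus strand): gatttccttcCTCTTTTggcaacatggcgg
EIF2A (chr3:150546777-150546806, plus strand): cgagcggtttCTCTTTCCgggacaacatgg
EIF2D (chr1:206612446-206612475, minus strand): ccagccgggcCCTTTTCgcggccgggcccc
EEF1G (chr11:62573872-62573901, minus strand): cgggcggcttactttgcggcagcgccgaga
EIF3B (chr7:2354817-2354846, plus strand): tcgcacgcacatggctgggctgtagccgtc
EIF2B1 (chr12:123633667-123633696, minus strand): gtacggaagtgcgccggaagtggggtgcgg
The top 12 are all the members with such a start among the 52 that matched an entry of the RefSeq table. EEF1G, EIF3B and EIF2B1 are shown as called members without one.

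Each library held between 1610984 and 2060349 counts, so that 3 counts corresponded to between 1.46 and 1.86 CPM (counts scaled to a common library size, here after TMM normalization). The members spanned mean levels from 5.57 to 8179 CPM with a median of 199.7 CPM, and the lowest of them had 89 counts over the 9 libraries, which limits what can be seen in the low ones. SEs of the log2 fold change ran from 0.046 to 0.076 in the 34 members at or above the median level and from 0.078 to 0.39 in the 33 below it. The epithelial markers EPCAM, KRT8, KRT18, KRT19 and CDH1 were all counted, EPCAM at between 345 and 470.3 CPM, and the fibroblast gene COL1A1 lay between 8.71 and 25.6 CPM. The other 6 markers of the list had no row under their symbols. They are VIL1 of the epithelial markers and VIM, COL1A2, PTPRC, CD3E and PECAM1 of other cell types. The filter behind the table of gene counts is not given, so that a missing row is not a measured level.

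In HUWE1-CS cells, 14 of the 67 members rose and 8 fell against HUWE1-P cells, and 13 rose and 5 fell against HUWE1-WT cells. A gene was called at an adjusted p of at most 0.01 (edgeR's quasi-likelihood test with Benjamini-Hochberg adjustment over all 11350 genes). Without HUWE1-P replicate 1 or 2 or HUWE1-CS replicate 1, 5 members fell against HUWE1-P cells. With a trend in transcript length removed, 9 fell against HUWE1-WT cells. The 22 calls against HUWE1-P cells are 32.8% of the members, beside 17% of all genes, of which 8.46% were higher and 8.58% lower. The 18 calls against HUWE1-WT cells are 26.9%, beside 15.5% of all genes. The members are abundant, however, and abundant genes are called more easily. Among the 976 genes at or above the members' median level, 43.4% were called against HUWE1-P and 38.9% against HUWE1-WT cells, while of the 34 members there 17 (50%) and 13 (38.2%) were called. These shares lie close to each other, so that the members did not stand out from genes of their level by the number of calls, and what follows describes which of them moved. The changes were small, with a median absolute log2 fold change of 0.37 among called members and 0.55 among all called genes. Those medians are not matched for level, and genes with larger SEs are called only at larger changes. The median over all 67 members was 0.01, beside -0.01 over all genes. Both comparisons use the same HUWE1-CS libraries, so that their values are given side by side and do not support each other.

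Between the 2 control lines no member was called. For HUWE1-WT set against HUWE1-P, 0 of 67 members passed edgeR's test, 0 passed DESeq2's and 2 (EIF3L and EEF1AKMT3) had an unadjusted p below 0.05, in a comparison that called 0.0617% of all genes. All 3 HUWE1-CS libraries lay above all 6 control libraries for 18 members and below all of them for 8, together 38.8% of the members, beside 26.3% of all genes. This share was not taken for genes of the members' level, so that the part of abundance in the gap was not tested. With total counts in place of TMM normalization, 17 members lay above and 9 below all controls.

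**Figure D1:**
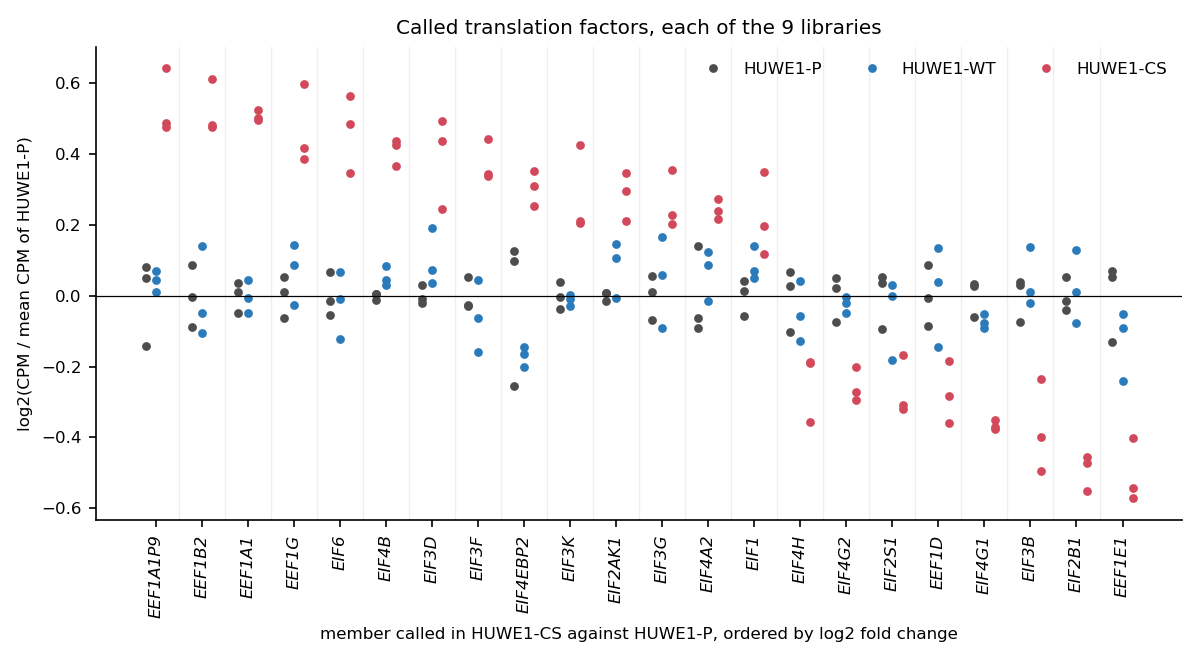
Level of each of the 22 members called in HUWE1-CS against HUWE1-P, as log2 of CPM over the mean CPM of HUWE1-P (vertical axis), 1 point per library and ordered by log2 fold change. The red HUWE1-CS points of EEF1A1 lie close together at about 1.42-fold above the controls, while those of EIF1 and EIF2S1 reach the range of the HUWE1-WT points.

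Of the 7 genes named as eEF1 or eEF2 subunits, 3 rose and 2 fell against HUWE1-P cells. Against HUWE1-WT cells 3 rose and 1 fell. The calls are 71.4% and 57.1% of so few genes, beside 17% and 15.5% of all genes and 43.4% and 38.9% of the 976 abundant ones. The 7 include EEF1E1, which is not an elongation factor by function, as described below, and is 1 of the 2 that fell. EEF1A1 (Entrez 1915, GRCh37 chr6:74199031-74235310, minus strand), the eEF1A that brings aminoacyl-tRNA to the ribosome, was the most abundant member. Its libraries held 7227, 7364 and 6941 CPM in HUWE1-P, 6937, 7397 and 7142 CPM in HUWE1-WT and 10126, 10315 and 10159 CPM in HUWE1-CS libraries. The 3 HUWE1-CS libraries lay close together and apart from all 6 controls, which overlapped each other. EEF1A1 rose 1.42-fold, a log2 fold change of 0.51 ± 0.046 (SE, adjusted p = 2.97e-16) against HUWE1-P and of 0.51 ± 0.046 (SE, adjusted p = 2.47e-16) against HUWE1-WT cells. As a share of all counts, EEF1A1 took between 0.699% and 0.742% in the control libraries and 1.01% in each HUWE1-CS library. All members together took 3.19% ± 0.03 (SD, n = 3) of the counts in HUWE1-P, 3.19% ± 0.05 in HUWE1-WT and 3.54% ± 0.04 in HUWE1-CS cells. With EEF1A1 left out, the shares were 2.49%, 2.49% and 2.55%, so that the rise in the total share was mostly EEF1A1 itself. In bulk RNA from a whole culture, more transcript per cell and more cells that express it cannot be told apart.

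The paralogue EEF1A2, known as the eEF1A of muscle and neurons and often expressed in tumours, was counted as well. It held 717, 747 and 779 CPM in HUWE1-P, 777, 792 and 737 CPM in HUWE1-WT and 824, 927 and 801 CPM in HUWE1-CS libraries. Its HUWE1-CS libraries were the highest of all, but the difference of 0.19 ± 0.059 (SE, adjusted p = 0.0128) did not pass against HUWE1-P, nor did that of 0.15 ± 0.059 (SE, adjusted p = 0.0596) against HUWE1-WT cells. Against HUWE1-P cells EEF1A2 was called in 8 of 22 alternative analyses. Per kilobase of the canonical transcript, EEF1A1 made up 82.9% ± 0.9 (SD, n = 3) of the pair in HUWE1-P, 82.5% ± 0.6 in HUWE1-WT and 85.8% ± 0.8 in HUWE1-CS cells. The 2 transcripts share none of their 50-base words, so that their reads should separate. EEF1A1P9 (GRCh37 chr4:106405855-106407237, plus strand) is a processed pseudogene of EEF1A1 and shares 17.5% of its 50-base words with it. Its counts were between 0.736% and 0.852% of those of EEF1A1 in every library. It held 59.6, 58.4 and 51.1 CPM in HUWE1-P, 59.1, 56.7 and 58.1 CPM in HUWE1-WT and 78.3, 87.9 and 79 CPM in HUWE1-CS libraries, a log2 fold change of 0.55 ± 0.12 (SE, adjusted p = 0.000157) against HUWE1-P and 0.50 ± 0.12 (SE, adjusted p = 0.000661) against HUWE1-WT cells, and reads of EEF1A1 counted on the pseudogene cannot be told apart from its own.

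eEF1A is recharged with GTP by the eEF1B complex, and the mRNAs of its subunits moved in opposite directions. EEF1B2 (Entrez 1933, GRCh37 chr2:207024309-207027652, plus strand), an exchange subunit, held 416, 444 and 393 CPM in HUWE1-P, 388, 460.3 and 404 CPM in HUWE1-WT and 581, 584 and 639 CPM in HUWE1-CS libraries. EEF1G (Entrez 1937, GRCh37 chr11:62327068-62341558, minus strand), the scaffold subunit, held 1318, 1281 and 1217 CPM in HUWE1-P, 1249, 1405 and 1352 CPM in HUWE1-WT and 1700.1, 1925 and 1661 CPM in HUWE1-CS libraries. Both rose without overlap of the groups. The log2 fold changes against HUWE1-P cells were 0.53 ± 0.065 (SE, adjusted p = 1.24e-10) for EEF1B2 and 0.47 ± 0.056 (SE, adjusted p = 3.58e-11) for EEF1G. Against HUWE1-WT cells they were 0.52 ± 0.065 (SE, adjusted p = 1.75e-10) and 0.40 ± 0.056 (SE, adjusted p = 9.59e-09).

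EEF1D (Entrez 1936), the other exchange subunit, held 475, 506 and 449 CPM in HUWE1-P, 431, 489.7 and 523 CPM in HUWE1-WT and 371, 419.7 and 391 CPM in HUWE1-CS libraries. All HUWE1-CS libraries were below all controls, with a log2 fold change of -0.27 ± 0.067 (SE, adjusted p = 0.000981) against HUWE1-P and -0.29 ± 0.067 (SE, adjusted p = 0.00053) against HUWE1-WT cells. The call against HUWE1-P was lost without HUWE1-P replicate 2 (adjusted p = 0.0189) and without HUWE1-CS replicate 1 (0.0187), and that against HUWE1-WT without HUWE1-WT replicate 3 (0.025) and without HUWE1-CS replicate 1 (0.0129). The pairs of subunits compared next were picked after their values were seen, and their ratios are a description. Counts of EEF1B2 per count of EEF1D were 0.877 ± 0.001 (SD, n = 3) in HUWE1-P, 0.871 ± 0.087 in HUWE1-WT and 1.53 ± 0.12 in HUWE1-CS cells. Counts of EEF1G per count of EEF1D were 2.67 ± 0.13, 2.78 ± 0.17 and 4.47 ± 0.19. Within 1 complex, the transcripts of the subunits thus stood in different proportions in HUWE1-CS cells.

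EEF1E1, which despite its name is a subunit of the multi-tRNA synthetase complex, held 67.7, 66.8 and 58.8 CPM in HUWE1-P, 54.5, 62.2 and 60.5 CPM in HUWE1-WT and 43.3, 44.2 and 48.8 CPM in HUWE1-CS libraries. It fell against HUWE1-P cells, with a log2 fold change of -0.50 ± 0.13 (SE, adjusted p = 0.00204), and the difference of -0.38 ± 0.13 (SE, adjusted p = 0.0269) against HUWE1-WT cells did not pass. The call was lost without HUWE1-P replicate 1 or 2 or HUWE1-CS replicate 1 or 2, with adjusted p between 0.0122 and 0.0139. EEF2 (Entrez 1938), the translocase, had 3837, 3553 and 3709 CPM in HUWE1-P, 3821, 3604 and 3702 CPM in HUWE1-WT and 4053, 4053 and 3921 CPM in HUWE1-CS libraries. Its HUWE1-CS libraries were the 3 highest, yet the log2 fold changes of 0.12 ± 0.049 (SE, adjusted p = 0.0712) and 0.11 ± 0.049 (SE, adjusted p = 0.0856) did not pass. The 95% interval of the change of EEF2 against HUWE1-P cells, 1.96 SE to either side, was 0.02 to 0.21 and did not reach the 0.51 of EEF1A1.

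Of the 6 enzymes that modify elongation factors, 0 were called against HUWE1-P cells by edgeR, while 3 had an unadjusted p below 0.05 and DESeq2 also called 0. EEF2K, the kinase that inhibits eEF2, held 66.4, 57.2 and 62.2 CPM in HUWE1-P, 69.5, 52.4 and 57 CPM in HUWE1-WT and 53.4, 46.5 and 42.4 CPM in HUWE1-CS libraries. Its HUWE1-CS values overlapped the controls, and the log2 fold change was -0.38 ± 0.13 (SE, adjusted p = 0.0227). EEF1AKMT1, a lysine methyltransferase of eEF1A, was called only against HUWE1-WT cells, and that call rested on few counts. Its log2 fold change was 1.08 ± 0.31 (SE, adjusted p = 0.0053) with 4.34, 11.8 and 9.15 CPM in HUWE1-P, 6.37, 7.63 and 6.4 CPM in HUWE1-WT and 17.2, 10.2 and 16.3 CPM in HUWE1-CS libraries, and the HUWE1-CS libraries overlapped HUWE1-P. Without HUWE1-WT replicate 1 or 3 or HUWE1-CS replicate 1 or 3 the adjusted p was between 0.0201 and 0.0436. EEF1AKMT2, EEF1AKMT3, EEF1AKNMT and EEF2KMT were not called in either comparison, with log2 fold changes against HUWE1-P between -0.50 and 0.05.

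**Figure D2:**
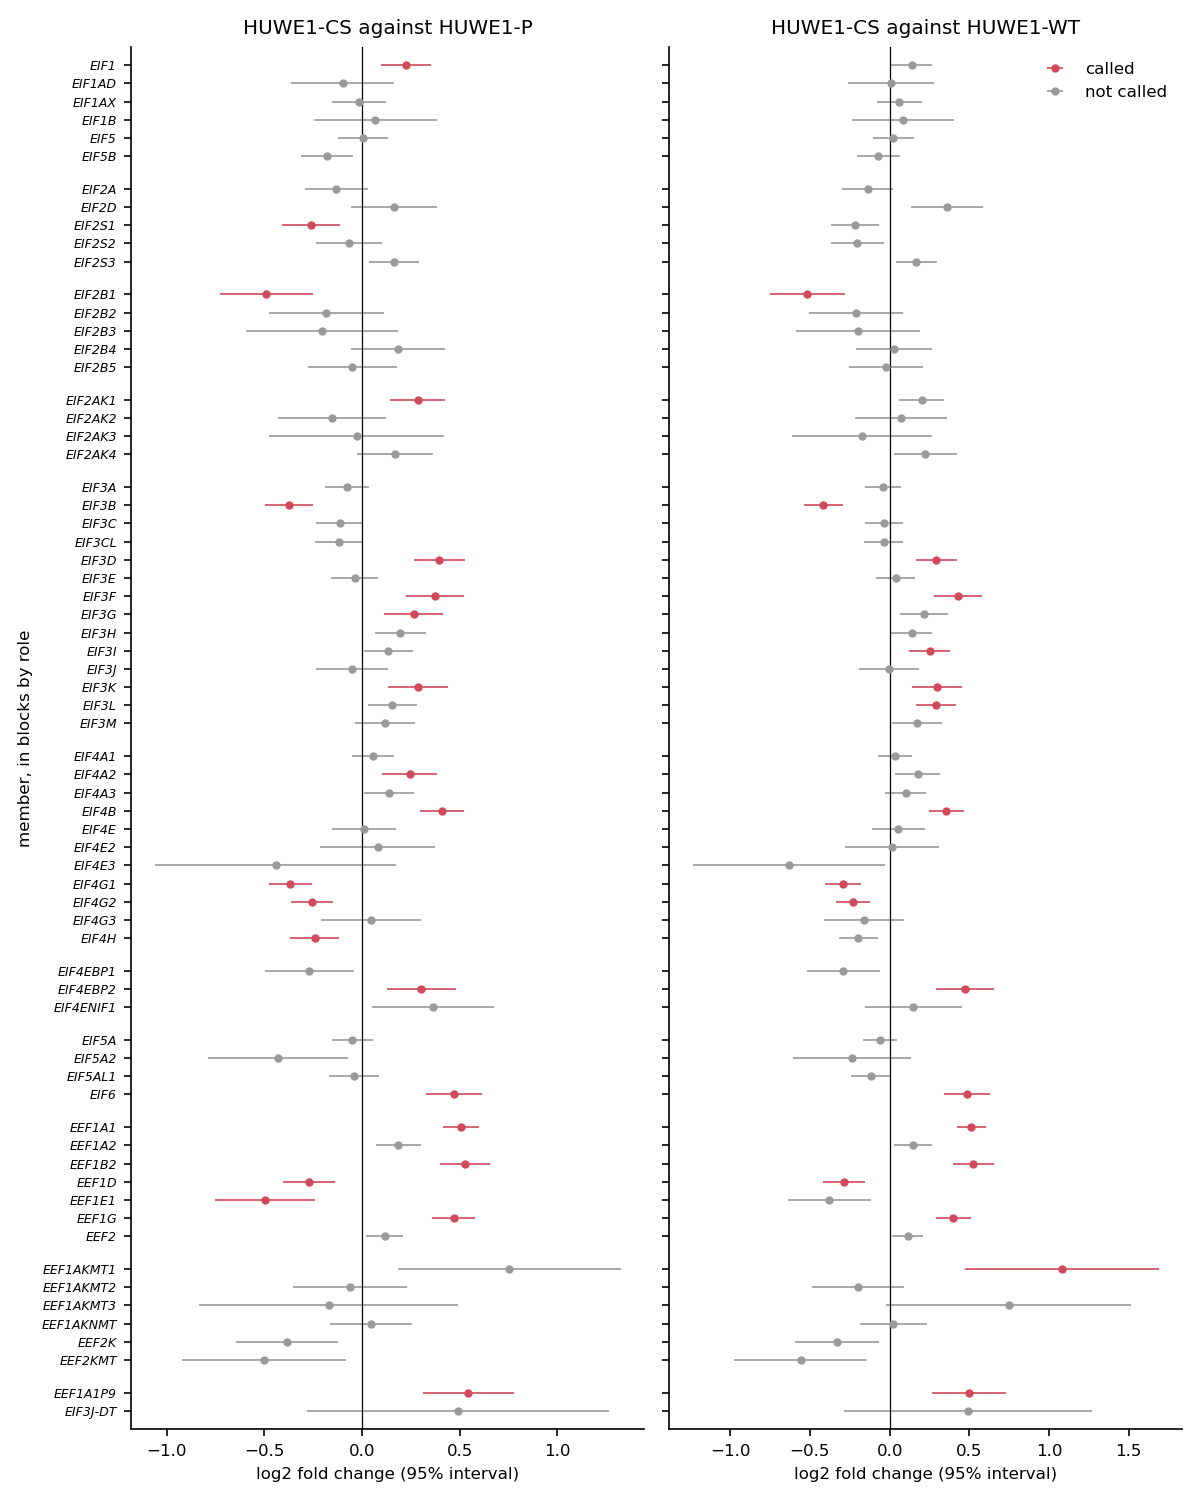
Log2 fold change (horizontal axis, point) with its 95% interval (bar, 1.96 SE) of all 67 members, with called members in red. Blocks are by role, with scanning factors at the top and the genes named as eEF1 or eEF2 subunits near the bottom. In that block near the bottom, called members range from EEF1B2 at 0.53 to the synthetase complex subunit EEF1E1 at -0.50 against HUWE1-P. The intervals widen in members with few counts such as EEF1AKMT1.

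In initiation, the factors that scan for the start codon changed little. EIF1, which keeps scanning accurate, held 396, 404 and 377 CPM in HUWE1-P, 411, 432 and 406 CPM in HUWE1-WT and 426, 499.6 and 450.0 CPM in HUWE1-CS libraries. Its HUWE1-CS values were mostly higher but 1 of them lay within the HUWE1-WT range. It rose by 0.23 ± 0.065 (SE, adjusted p = 0.00532) against HUWE1-P cells, and 0.14 ± 0.065 (SE, adjusted p = 0.112) against HUWE1-WT cells did not pass. Without HUWE1-P replicate 1 or 3 or HUWE1-CS replicate 2 the call was lost, with adjusted p between 0.0187 and 0.0634. The paralogue EIF1B held 29.8, 34.2 and 39 CPM in HUWE1-P, 37.7, 30.5 and 34.9 CPM in HUWE1-WT and 33.2, 43.7 and 31.9 CPM in HUWE1-CS libraries, with no separation of the lines. EIF1AX, EIF1AD, EIF5 (which triggers GTP hydrolysis by eIF2) and EIF5B (which joins the subunits) had log2 fold changes between -0.18 and 0.01 and were not called. Of these, EIF1AD is grouped here by its name, and these data do not show a part of it in scanning.

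eIF2 carries the initiator tRNA, and 1 of the 5 genes for tRNA delivery was called. EIF2S1, the alpha subunit that stress kinases phosphorylate, held 254, 251 and 229.8 CPM in HUWE1-P, 245, 250.3 and 216 CPM in HUWE1-WT and 196, 198 and 218 CPM in HUWE1-CS libraries. The HUWE1-CS values were low, with 1 of them inside the HUWE1-WT range. The log2 fold change was -0.26 ± 0.075 (SE, adjusted p = 0.00551) against HUWE1-P cells and -0.22 ± 0.076 (SE, adjusted p = 0.0261) against HUWE1-WT cells, which did not pass. Without HUWE1-P replicate 1 or 2 or HUWE1-CS replicate 1 or 2 the adjusted p against HUWE1-P was between 0.0285 and 0.0392. The beta and gamma subunits EIF2S2 (-0.07) and EIF2S3 (0.16) and the alternative tRNA carriers EIF2A (-0.13) and EIF2D (0.16) were not called. For EIF2D the difference from HUWE1-WT cells was 0.36 ± 0.11 (SE, adjusted p = 0.0133).

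eIF2B recharges eIF2 with GTP. Of its 5 subunits EIF2B1 fell (Entrez 1967, GRCh37 chr12:124104953-124118313, minus strand), the alpha subunit through which eIF2B senses phosphorylated eIF2. It held 77.6, 74.1 and 72.8 CPM in HUWE1-P, 75.3, 81.8 and 70.9 CPM in HUWE1-WT and 54.6, 53.9 and 51.1 CPM in HUWE1-CS libraries. All HUWE1-CS libraries were below all controls. The log2 fold change was -0.49 ± 0.12 (SE, adjusted p = 0.000995) against HUWE1-P cells, which is 0.713 of their level, and -0.52 ± 0.12 (SE, adjusted p = 0.000544) against HUWE1-WT cells. DESeq2 did not call the difference from HUWE1-P (-0.48, adjusted p = 0.0143). The other subunits were EIF2B2 (-0.18), EIF2B3 (-0.20), EIF2B4 (0.18) and EIF2B5 (-0.05), and none of them was called in any of the 3 comparisons. The 95% intervals of EIF2B2 and EIF2B3, both at low levels, were wide, at -0.48 to 0.11 and -0.59 to 0.18.

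The 4 eIF2 alpha kinases answer to different stresses. EIF2AK1 (HRI, which responds to haem shortage and mitochondrial stress) held 223, 226 and 226 CPM in HUWE1-P, 224, 249 and 242 CPM in HUWE1-WT and 261, 276 and 286 CPM in HUWE1-CS libraries. All HUWE1-CS libraries were above all controls. It rose by 0.28 ± 0.072 (SE, adjusted p = 0.00125) against HUWE1-P cells, and 0.20 ± 0.071 (SE, adjusted p = 0.029) against HUWE1-WT cells did not pass. EIF2AK2 (PKR, activated by double-stranded RNA, -0.15), EIF2AK3 (PERK, of the endoplasmic reticulum, -0.03) and EIF2AK4 (GCN2, activated by uncharged tRNA, 0.17) were not called against HUWE1-P cells. mRNA levels say nothing of kinase activity.

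eIF3 is the largest initiation factor, and its transcripts moved in both directions. Of 14 rows, 4 rose and 1 fell against HUWE1-P cells, and 5 rose and 1 fell against HUWE1-WT cells, with median log2 fold changes of 0.13 and 0.15. The called rows are 35.7% and 42.9% of the 14, near the 43.4% and 38.9% of abundant genes given above, so that the count itself does not set eIF3 apart. EIF3D (Entrez 8664, GRCh37 chr22:36906902-36925231, minus strand), a subunit that can bind the cap of some mRNAs itself, held 349, 337 and 339.7 CPM in HUWE1-P, 359, 390.5 and 351 CPM in HUWE1-WT and 462, 481 and 405 CPM in HUWE1-CS libraries. EIF3F (Entrez 8665, GRCh37 chr11:7991798-8023409, plus strand) held 181, 180.2 and 191 CPM in HUWE1-P, 165, 189.8 and 176 CPM in HUWE1-WT and 233, 250.1 and 232 CPM in HUWE1-CS libraries. Both rose in every HUWE1-CS library above every control. The log2 fold changes against HUWE1-P cells were 0.40 ± 0.067 (SE, adjusted p = 1.19e-06) for EIF3D and 0.37 ± 0.076 (SE, adjusted p = 5.29e-05) for EIF3F, and against HUWE1-WT cells 0.29 ± 0.067 (SE, adjusted p = 0.000358) and 0.43 ± 0.077 (SE, adjusted p = 4.48e-06).

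EIF3B (Entrez 8662, GRCh37 chr7:2393721-2420380, plus strand), a core subunit that carries the EIF3G and EIF3I module, was the subunit that fell. It held 701, 652 and 705 CPM in HUWE1-P, 676, 691 and 755 CPM in HUWE1-WT and 519.8, 582 and 487 CPM in HUWE1-CS libraries. No HUWE1-CS library reached the controls, and the log2 fold change was -0.37 ± 0.063 (SE, adjusted p = 1.20e-06) against HUWE1-P and -0.42 ± 0.063 (SE, adjusted p = 8.12e-08) against HUWE1-WT cells. In a ratio picked after its values were seen, counts of EIF3D per count of EIF3B were 0.499 ± 0.017 (SD, n = 3) in HUWE1-P, 0.52 ± 0.051 in HUWE1-WT and 0.849 ± 0.035 in HUWE1-CS cells. The other scaffold subunits EIF3A (-0.08) and EIF3C (-0.11) were not called. EIF3C and its copy EIF3CL share 98.8% of their 50-base words, and their counts differed by only 4 to 25 in a library, so that these 2 rows cannot be told apart. EIF3J-DT, a transcript next to EIF3J and not a subunit, was the lowest member at 5.57 CPM and was not called.

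The other calls of subunits were less firm, except that of EIF3L against HUWE1-WT cells, which was made in each of 22 alternative analyses. EIF3K rose by 0.28 ± 0.078 (SE, adjusted p = 0.00332) against HUWE1-P and 0.30 ± 0.079 (SE, adjusted p = 0.00252) against HUWE1-WT cells, and EIF3G by 0.27 ± 0.076 (SE, adjusted p = 0.00535) against HUWE1-P cells. For EIF3K the call against HUWE1-P was lost without HUWE1-P replicate 1 or 3 or HUWE1-CS replicate 2 (adjusted p between 0.0166 and 0.0509), and that against HUWE1-WT without HUWE1-WT replicate 3 (0.0151) or HUWE1-CS replicate 2 (0.042). For EIF3G it was lost without any one of the HUWE1-P libraries or HUWE1-CS replicate 1 or 2 (between 0.0102 and 0.0382). EIF3L rose by 0.29 ± 0.064 (SE, adjusted p = 0.00026) and EIF3I by 0.25 ± 0.065 (SE, adjusted p = 0.00201) against HUWE1-WT cells. Against HUWE1-P cells they stood at 0.16 ± 0.064 (SE, adjusted p = 0.0589) and 0.14 ± 0.064 (SE, adjusted p = 0.114) and were not called. The call of EIF3I was lost without HUWE1-WT replicate 3 (0.0114) or HUWE1-CS replicate 3 (0.0102). With a trend in transcript length removed, EIF3I (0.17, adjusted p = 0.0235) and EIF3K (0.11, adjusted p = 0.269) were no longer called against HUWE1-WT cells. DESeq2 did not call EIF3K against HUWE1-WT cells either (adjusted p = 0.0187). EIF3E, EIF3H, EIF3J and EIF3M were called in neither comparison, and EIF3H was the closest at 0.20 ± 0.066 (SE, adjusted p = 0.0184) against HUWE1-P cells.

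eIF4F joins the cap to the ribosome, and its scaffold and its helper moved apart. EIF4G1 (Entrez 1981, GRCh37 chr3:184032283-184053146, plus strand), the scaffold that binds eIF4E, eIF4A and eIF3, held 1123, 1057 and 1129 CPM in HUWE1-P, 1046, 1036 and 1064 CPM in HUWE1-WT and 849, 865 and 853 CPM in HUWE1-CS libraries. All HUWE1-CS libraries were below all controls, with a log2 fold change of -0.37 ± 0.056 (SE, adjusted p = 1.10e-07) against HUWE1-P and -0.29 ± 0.056 (SE, adjusted p = 2.18e-05) against HUWE1-WT cells. EIF4G2 (DAP5, GRCh37 chr11:10818597-10830487, minus strand), a relative that does not bind eIF4E, held 1593, 1462 and 1562 CPM in HUWE1-P, 1517, 1488 and 1536 CPM in HUWE1-WT and 1274, 1256 and 1339 CPM in HUWE1-CS libraries. It fell too, with log2 fold changes of -0.25 ± 0.054 (SE, adjusted p = 0.000115) and -0.23 ± 0.054 (SE, adjusted p = 0.000568). The remaining paralogue EIF4G3 held 50.3, 66.2 and 52.5 CPM in HUWE1-P, 73.6, 64.3 and 57 CPM in HUWE1-WT and 52.2, 56.1 and 66.2 CPM in HUWE1-CS libraries, overlapped between the lines and was not called. Per kilobase, EIF4G1 made up 95.8% ± 0.8 (SD, n = 3) of the pair with EIF4G3 in HUWE1-P, 95% ± 0.6 in HUWE1-WT and 94.6% ± 0.6 in HUWE1-CS cells.

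EIF4B (Entrez 1975, GRCh37 chr12:53400066-53435999, plus strand), which stimulates the eIF4A helicase, held 834, 824 and 834 CPM in HUWE1-P, 857, 849 and 881 CPM in HUWE1-WT and 1126, 1070.2 and 1115 CPM in HUWE1-CS libraries. Every HUWE1-CS library was above every control. It rose by 0.41 ± 0.056 (SE, adjusted p = 4.45e-09) against HUWE1-P and 0.36 ± 0.056 (SE, adjusted p = 2.67e-07) against HUWE1-WT cells. EIF4H, a related helicase stimulator, held 618, 565 and 635 CPM in HUWE1-P, 555, 583 and 624 CPM in HUWE1-WT and 531, 533 and 474 CPM in HUWE1-CS libraries. It fell against HUWE1-P cells, with a log2 fold change of -0.24 ± 0.063 (SE, adjusted p = 0.00184), and the -0.20 ± 0.063 (SE, adjusted p = 0.015) against HUWE1-WT cells did not pass but was called in 6 of 22 alternative analyses. Without HUWE1-P replicate 1 or 3 or HUWE1-CS replicate 3 the call of EIF4H was lost (adjusted p between 0.0168 and 0.0506). Counts of EIF4B per count of EIF4G1, again a ratio picked after the values were seen, were 0.754 ± 0.023 (SD, n = 3) in HUWE1-P, 0.822 ± 0.005 in HUWE1-WT and 1.29 ± 0.05 in HUWE1-CS cells.

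The cap-binding protein and the main helicase were not called. EIF4E had log2 fold changes of 0.01 ± 0.083 (SE, adjusted p = 0.953) and 0.05 ± 0.084 (SE, adjusted p = 0.69), with an interval of -0.15 to 0.17 against HUWE1-P cells. EIF4A1, the abundant eIF4A, held 1268, 1295 and 1323 CPM in HUWE1-P, 1252, 1362 and 1334 CPM in HUWE1-WT and 1290.1, 1389 and 1363 CPM in HUWE1-CS libraries and was at 0.06 ± 0.055 (SE, adjusted p = 0.487) against HUWE1-P cells. Its paralogue EIF4A2 held 222, 256 and 218 CPM in HUWE1-P, 246, 229.6 and 253 CPM in HUWE1-WT and 274, 269 and 280.4 CPM in HUWE1-CS libraries. EIF4A2 rose by 0.24 ± 0.072 (SE, adjusted p = 0.00696) against HUWE1-P cells, and its difference of 0.18 ± 0.072 (SE, adjusted p = 0.0617) from HUWE1-WT cells did not pass. Its call was lost without HUWE1-P replicate 1 or 3 or HUWE1-CS replicate 1 or 3 (adjusted p between 0.0205 and 0.0836). Per kilobase, EIF4A1 made up 85.7% ± 1.2 (SD, n = 3) of the pair in HUWE1-P, 85.3% ± 1.0 in HUWE1-WT and 84.0% ± 0.6 in HUWE1-CS libraries, and the lines overlapped. EIF4A3 (the helicase of the exon junction complex), EIF4E2 and EIF4E3 were not called.

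The repressors of eIF4E stood in a different balance. EIF4EBP2 (4E-BP2) held 136, 104 and 133 CPM in HUWE1-P, 108, 111 and 113 CPM in HUWE1-WT and 159, 149 and 154 CPM in HUWE1-CS libraries. All HUWE1-CS libraries were above all controls, with a log2 fold change of 0.30 ± 0.09 (SE, adjusted p = 0.00646) against HUWE1-P and 0.47 ± 0.092 (SE, adjusted p = 2.67e-05) against HUWE1-WT cells. The call against HUWE1-P was lost without HUWE1-P replicate 2 (0.19 on the log2 scale, adjusted p = 0.143) and without HUWE1-CS replicate 1 (0.0346) or 3 (0.0138). EIF4EBP1 (4E-BP1) held 87.5, 79.7 and 73.2 CPM in HUWE1-P, 75.9, 84.5 and 82 CPM in HUWE1-WT and 57, 70.9 and 70.3 CPM in HUWE1-CS libraries. Its HUWE1-CS libraries were the 3 lowest, but the log2 fold changes of -0.27 ± 0.12 (SE, adjusted p = 0.0748) and -0.29 ± 0.12 (SE, adjusted p = 0.0554) did not pass. Per kilobase, EIF4EBP1 made up 85.3% ± 2.1 (SD, n = 3) of the pair in HUWE1-P, 86.8% ± 0.5 in HUWE1-WT and 79.4% ± 2.6 in HUWE1-CS cells, where every library was below every control. EIF4ENIF1, which carries eIF4E to processing bodies, was at 0.36 ± 0.16 (SE, adjusted p = 0.0805) against HUWE1-P cells.

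EIF6 (Entrez 3692, GRCh37 chr20:33866710-33872788, minus strand) binds the large subunit and keeps it from joining before it is mature. It held 223, 205 and 211 CPM in HUWE1-P, 196, 212 and 223 CPM in HUWE1-WT and 298, 315 and 271 CPM in HUWE1-CS libraries. Every HUWE1-CS library was above every control, and EIF6 rose 1.38-fold, a log2 fold change of 0.47 ± 0.073 (SE, adjusted p = 1.55e-07) against HUWE1-P and 0.49 ± 0.073 (SE, adjusted p = 7.46e-08) against HUWE1-WT cells. EIF5A, the hypusine-bearing factor that helps the ribosome past difficult peptide bonds, was among the most abundant members and stood at -0.05 ± 0.055 (SE, adjusted p = 0.56), with an interval of -0.16 to 0.06. EIF5A2 and EIF5AL1 were not called, and 36.8% of the 50-base words of EIF5A lie in EIF5AL1, so that reads of EIF5A may be counted there.

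Set per kilobase of canonical transcript, the mean level in HUWE1-P cells was 2044 CPM per kilobase for EEF1A1, 1172 for EEF2, 1099 for EIF5A, 879.7 for EEF1G, 736.8 for EIF4A1 and 517 for EEF1B2. In HUWE1-CS cells the order was EEF1A1 at 2904, EEF2 at 1269, EEF1G at 1219, EIF5A at 1062, EIF4A1 at 766 and EEF1B2 at 744. As counted, EEF1G thus stood above EIF5A in HUWE1-CS cells and below it in HUWE1-P cells. EIF5AL1, where reads of EIF5A may be counted, held between 27.3% and 30.6% of the counts of EIF5A in a library. Such reads would set EIF5A too low, so that its order with EEF1G is not settled. All levels per kilobase rest on 1 annotated transcript per gene and move if another is the main form.

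The members that rose were in part those whose transcripts start with pyrimidines. Of the 12 members with such a start, shown above, 7 rose against HUWE1-P cells (EEF1A1, EEF1B2, EIF3D, EIF3F, EIF3K, EIF4A2 and EIF4B) and 0 fell, with a median log2 fold change of 0.26. Of the 40 members with an entry and another start, 4 rose and 7 fell, with a median of -0.05. Against HUWE1-WT cells 6 rose and 0 fell among the 12, and 4 rose and 4 fell among the 40. Over the whole table, 18.1% of the 706 genes with such a start were higher and 7.37% lower against HUWE1-P cells, with a median of 0.06, beside 7.69% and 8.55% of the 8335 genes with an entry and another start. Against HUWE1-WT cells, these shares were 15.2% and 6.66%, beside 6.69% and 8.19%. Members and other genes with such a start thus had more higher than lower calls. Such a start was found in 23.1% of the 52 members with an entry, in 7.81% of the 9041 genes with an entry and in 4.07% of the 35116 starts of the RefSeq table. The 12 members were also more abundant, with a median of 318 CPM beside 109 CPM in the 40, and the part of abundance in the difference between these numbers was not tested. A match is a description of letters at an annotated start, not of the start used in these cells.

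A list of 9 members known from general knowledge as 5′TOP mRNAs (EEF1A1, EEF1B2, EEF1D, EEF1G, EEF2, EIF3E, EIF3F, EIF3H and EIF4B) gave 5 higher and 1 lower, EEF1D, in either comparison. Its median log2 fold change was 0.37 against HUWE1-P and 0.36 against HUWE1-WT cells. The 6 calls are 66.7% of the list, beside 17% and 15.5% of all genes and 43.4% and 38.9% of abundant ones, and the list was drawn up with earlier results of these data known. EEF1A1, EEF1B2, EEF2, EIF3F and EIF4B are on the list and have a pyrimidine start, while EEF1G has no such start in the table and EIF3E, EIF3H and EEF1D were not matched.

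**Figure D3:**
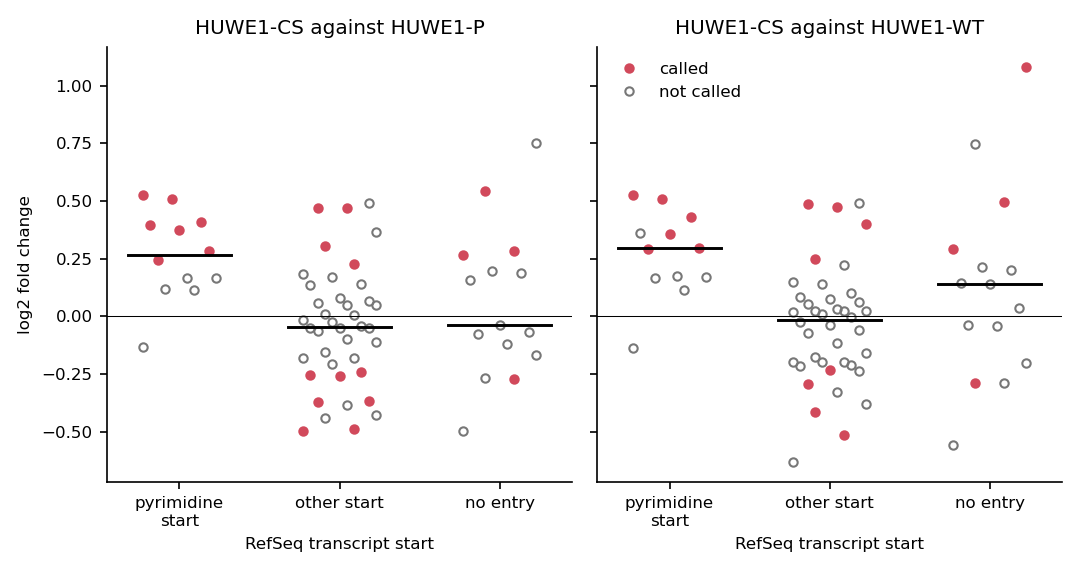
Log2 fold change (vertical axis) of the 67 members by their RefSeq transcript start, with C and at least 4 pyrimidines (12), another start (40) or no entry (15), for both comparisons, with the median of each class as a black bar. Red points are called members, and in the pyrimidine class against HUWE1-P all 7 of them lie above 0.

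Transcript length moved with the line over the whole table. With all genes put into 4 classes of equal size by transcript length, HUWE1-CS differed from HUWE1-P by a median of 0.12 on the log2 scale in the shortest class, 0.02 and -0.04 in the middle ones and -0.11 in the longest. Over all genes, short transcripts were thus shifted up and long ones down. From the shortest to the longest class, the medians ran from 0.10 to -0.07 for HUWE1-CS against HUWE1-WT. Between the control lines, HUWE1-WT against HUWE1-P, they ran the same way with a smaller span, from 0.03 to -0.04. The 14 members that rose had a median transcript of 1883 bases (772 to 7491), the 8 that fell of 2830 bases and the 45 not called of 2913 bases, so that the median of the members that fell was not above that of those not called. When a trend with length was removed from each library, 12 members were higher and 9 lower. EIF3K (log2 fold change 0.08), EIF3G (0.13), EIF4A2 (0.18) and EIF2S1 (-0.21) were then no longer called, whereas EIF3H (0.24), EIF4EBP1 (-0.46) and EIF5A (-0.17) were. EEF1A1 (0.53), EIF4B (0.45) and EIF3F (0.48), with long annotated transcripts, kept or gained size, while EEF1B2 (0.33), EEF1G (0.37) and EIF6 (0.32), with short ones, were smaller but still called. The lengths are of canonical transcripts, with 6920 bases for EIF3F and 3512 for EEF1A1, of which 1071 and 1386 are coding. If a shorter form is the main one in these cells, the removal set such a gene too high, and this was not tested. Of the 12 members with a pyrimidine start, 5 were higher and 0 lower against HUWE1-P cells after the removal. Of all 706 genes with such a start, 15.6% were then higher and 7.37% lower, beside 7.64% and 8.28% of the 8335 with another start. Against HUWE1-WT cells, the removal lost the calls of EIF3I, EIF3K and EEF1AKMT1. It added those of EEF1E1, EEF2, EIF2AK1, EIF4EBP1, EIF4H and EIF5A.

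**Figure D4:**
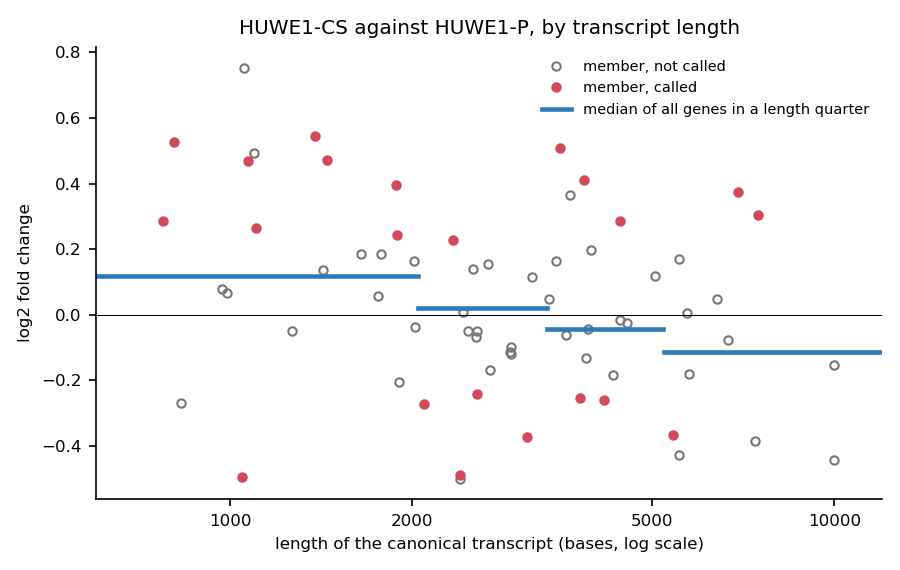
Log2 fold change in HUWE1-CS against HUWE1-P (vertical axis) against the length of the canonical transcript in bases (horizontal axis, log scale), 1 point per member with called members in red, and the median of all genes in each of 4 length classes as a blue line. The blue line falls from 0.12 to -0.11, and called members lie above and below them at nearly every length.

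Other genes of protein synthesis were read from a list of 34 genes of the table, of which 5 rose and 2 fell against HUWE1-P cells, and 5 rose and 2 fell against HUWE1-WT cells. That is 20.6% in each, beside 17% and 15.5% of all genes, and GSPT2, also looked for, had no row under its symbol. PABPC1, the poly(A)-binding protein, rose from 3199 ± 59.7 (SD, n = 3) to 3876 ± 175 CPM, a log2 fold change of 0.28 ± 0.05 (SE, adjusted p = 4.56e-06). RACK1, a ribosomal scaffold protein, rose by 0.31 ± 0.058 (SE, adjusted p = 1.12e-05), and TUFM, the mitochondrial elongation factor Tu, by 0.43 ± 0.06 (SE, adjusted p = 6.15e-09). MKNK2, a kinase of eIF4E, rose by 0.45 ± 0.086 (SE, adjusted p = 2.16e-05). PDCD4, an inhibitor of eIF4A, rose by 0.59 ± 0.16 (SE, adjusted p = 0.00388) at 39.7 ± 3.3 CPM in HUWE1-CS cells, and that call was lost without HUWE1-P replicate 1 (adjusted p = 0.0169) or 2 (0.038) or HUWE1-CS replicate 1 (0.0295). GSPT1, the release factor eRF3, fell with a log2 fold change of -0.31 ± 0.071 (SE, adjusted p = 0.000358), which was -0.20 (adjusted p = 0.0184) and no longer called with the length trend removed. PPP1R15B, which directs a phosphatase to eIF2 alpha, fell with a log2 fold change of -0.40 ± 0.091 (SE, adjusted p = 0.000264). MTOR (0.03), RPTOR (-0.11) and LARP1 (-0.08) were not called.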

How the data were processed

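Poly(A) RNA from 9 libraries was sequenced single-end. Per the labels and the study's methods, reads were demultiplexed with bcl2fastq 2.20, trimmed with Skewer and aligned with STAR 2.5.4 to hg19, and the authors deposited raw counts per gene. The counting tool, its annotation, use of strand and the filter on low genes are not given in the sources used here, so reads of overlapping, antisense or copied genes may be shared. Deposited tables of the authors' own edgeR 3.26.8 comparisons (log fold changes, p-values) were not used.

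All 11350 rows, including 147 with a gene ID but no symbol (0.505% of counts), were fitted together with edgeR 4.0.16 (quasi-likelihood, TMM, line as the only term, R 4.3.3), with adjusted p over all rows and calls at 0.01. SEs and intervals come from that fit. CPM were scaled to TMM library sizes. Alternatives were DESeq2 1.42.0, limma 3.58.1 (voom), other scalings, filters and estimators, removal of length or GC trends (the GC one chosen after seeing the data), a replicate block and leaving out each library. The code was tested on simulated data. Counts and intervals cover counting error and replicate spread only.

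Positions and transcript lengths are of GENCODE v44 canonical transcripts on GRCh37, the same build as hg19, for 11055 rows and all 67 members. Starts are from RefSeq on GRCh38.p14, both strands read as annotated. Values of every library are given for the 8 members with the smallest p in each direction against HUWE1-P, the smallest p in each role and paralogue pairs with a called member. The members, roles and lists were chosen with earlier results of these data known.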

Additional observations from a re-analysis of the deposited data

How the results depend on the processing

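Of the 22 calls against HUWE1-P cells, 12 (9 higher and 3 lower) were made in each of 22 alternative analyses, and of the 18 against HUWE1-WT cells, 13 (9 higher and 4 lower) were. EEF1A1, EEF1B2, EEF1G, EIF3B, EIF3D, EIF3F, EIF4B, EIF4G1, EIF4G2 and EIF6 were in both groups. Over those alternatives the called members against HUWE1-P cells gave 431 values that kept the call, 53 that lost it and 0 that changed direction, and against HUWE1-WT cells 375, 20 and 0. DESeq2 called 14 members against HUWE1-P cells (9 higher and 5 lower) and 3 eIF3 subunits (2 higher and 1 lower) where edgeR called 22 and 5, and the cause was not tested. DESeq2 also called fewer of all genes, 9.59% beside 17% by edgeR, while the members' shares were 20.9% and 32.8%. The shares by DESeq2 were not taken for genes of the members' level. The calls that DESeq2 did not make were those of EIF1, EIF2S1, EIF2B1, EIF3G, EIF3K, EIF4A2, EIF4EBP2 and EEF1E1. Leaving out 1 library at a time gave between 15 and 23 members called against HUWE1-P cells (fewest without HUWE1-P replicate 1, and 5 lower calls in place of 8 without HUWE1-P replicate 1 or 2 or HUWE1-CS replicate 1), 14 to 19 against HUWE1-WT cells, 5 to 6 of the 5′TOP list, 6 to 8 of the other translation genes and 3 to 5 eIF3 subunits (3 without HUWE1-P replicate 1 or 3 or HUWE1-CS replicate 2), with fewer libraries to test in each. At an adjusted p of at most 0.05, 27 members were called against HUWE1-P and 26 against HUWE1-WT cells. Scaling moved the split, against HUWE1-P cells to 10 higher and 8 lower by total counts and 12 higher and 9 lower with the length trend removed, and against HUWE1-WT cells, from 13 higher and 5 lower, to 13 and 6 and to 12 and 9. Without EEF1A1 the members took 2.49% of the counts in HUWE1-P, 2.49% in HUWE1-WT and 2.55% in HUWE1-CS libraries. Deviations of same-numbered libraries of different lines correlated between -0.027 and 0.093 over 7051 genes, and those of different numbers between -0.109 and 0.038. The 4 highest values were of same-numbered pairs, but none passed 0.1 and not every library correlated best with its own number, so the numbers were not taken to pair them. A replicate block called 23 members (15 higher and 8 lower) against HUWE1-P and 19 against HUWE1-WT cells, and with the length trend removed as well 22 and 21. Under the block alone EEF1A2 was also called against HUWE1-P (adjusted p = 0.0066) and EIF4H against HUWE1-WT cells (0.00961), and no call was lost. Between HUWE1-WT and HUWE1-P cells every alternative called 0 members. Members with few counts, such as EEF1AKMT1 and EIF3J-DT, could show only large changes.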
